A study of Mus musculus with 2 samples.

Results

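The let-7 microRNAs b, d, e, g and i were followed in mouse hippocampus. The members are the let-7 genes whose GENCODE M21 name has a letter and no copy number: Mirlet7b, Mirlet7d, Mirlet7e, Mirlet7g and Mirlet7i, 5 of 2202 annotated microRNA genes. The data were microRNA-seq libraries, 2 in all, labelled biological replicates 1 and 2 of a single control group of wild-type female mice of the strain named B6NCrl. The labels leave the sex and age fields unfilled and take the sex from a free-text description, call the tissue layer of hippocampus without naming the layer, and point both libraries to a common donor record with separate biosample records. Whether the tissue came from separate animals is not stated, so the spread between the libraries may be technical, and the design holds no second condition.

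Let-7 microRNAs are made from hairpin precursors that are cut by Drosha and then Dicer. The 5′ strand of the resulting duplex is the usual guide, loaded into an Argonaute protein, and its seed, bases 2 to 8, pairs with target messenger RNAs. The family is known for rising as cells leave the stem or progenitor state and for staying high in mature neurons and glia. The RNA-binding protein LIN28 blocks the processing of let-7 precursors in early cells and binds the letters GGAG near the 3′ end of the precursor loop.

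The mature 5′ arms show what the members share and how a read can tell them apart. They are printed from the RefSeq table (GRCm38.p6) with the seed in capitals, the members in order of letter and then the 4 other 5′ arms of the family.
let-7b-5p: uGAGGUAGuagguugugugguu
let-7d-5p: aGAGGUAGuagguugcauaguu
let-7e-5p: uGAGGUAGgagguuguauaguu
let-7g-5p: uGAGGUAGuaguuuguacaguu
let-7i-5p: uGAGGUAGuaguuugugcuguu
let-7a-5p: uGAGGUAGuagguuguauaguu
let-7c-5p: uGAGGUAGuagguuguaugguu
let-7f-5p: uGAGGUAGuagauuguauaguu
miR-98-5p: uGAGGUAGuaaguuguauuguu
All 9 arms have 22 bases and the seed GAGGUAG, which 11 of 1679 mature names of the RefSeq table carry, the other 2 being let-7k and miR-1961. Mir7k, the gene of let-7k, had 12 and 17 counts in replicates 1 and 2 (named after its values were seen). The 5 member arms are identical at 15 positions, and at 8 of the 14 positions after the seed.

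Counted from 1 at the 5′ end and read from let-7a to the member, let-7e differs by U9G alone. Let-7b differs by A17G and A19G, let-7d by U1A and U16C, and let-7g by G12U and U18C. Let-7i differs most, by G12U, A17G, U18C and A19U. Among the members, let-7g and let-7i are the closest pair, with 2 differences (A17G and A19U from g to i), and let-7d and let-7i the most distant, with 6. Let-7c, whose arm differs from let-7a by A19G, is encoded by Mirlet7c-1 and Mirlet7c-2, let-7a by Mirlet7a-1 and Mirlet7a-2, and let-7f (G12A) by Mirlet7f-1 and Mirlet7f-2.

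The precursor hairpins are shown because gene counts were made over them. Each is printed 5′ to 3′ with the 5′ and 3′ mature arms in capitals, from the same RefSeq table, and was identical to the GENCODE M21 transcript.
Mirlet7b: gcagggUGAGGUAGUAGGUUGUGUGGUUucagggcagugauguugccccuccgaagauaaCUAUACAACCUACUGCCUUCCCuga
Mirlet7d: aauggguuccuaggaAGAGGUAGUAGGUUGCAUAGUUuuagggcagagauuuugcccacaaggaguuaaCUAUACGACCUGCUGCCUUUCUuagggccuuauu
Mirlet7e: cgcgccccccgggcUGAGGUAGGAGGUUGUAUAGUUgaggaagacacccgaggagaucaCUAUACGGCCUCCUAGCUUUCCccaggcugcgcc
Mirlet7g: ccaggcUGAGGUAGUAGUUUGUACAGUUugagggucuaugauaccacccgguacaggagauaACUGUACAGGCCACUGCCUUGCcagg
Mirlet7i: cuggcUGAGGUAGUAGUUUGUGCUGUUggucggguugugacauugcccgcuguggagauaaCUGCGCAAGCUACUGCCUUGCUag
The hairpins are 85 to 103 bases long, with a GC content from 44.7% in Mirlet7d to 62.4% in Mirlet7e. The loop between the arms has 32 bases in Mirlet7b and Mirlet7d, 23 in Mirlet7e, and 34 in Mirlet7g and Mirlet7i. GGAG, searched on the transcribed strand only, lies in the loop of Mirlet7d, Mirlet7e and Mirlet7i with 4 bases between it and the 3′ arm, and in that of Mirlet7g with 3. Mirlet7e has a further match inside its 5′ arm, which spans U9G. The hairpin of Mirlet7b has no match, as have those of Mirlet7c-2 and Mir98, and 5 of the 7 relatives have it in the loop. Of 997 distinct RefSeq mouse hairpins, which vary in length, 44.4% hold GGAG somewhere.

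Each member sits at a locus of its own in the mm10 assembly. Mirlet7b (ENSMUSG00000065564.1, chromosome 15, 85707319 to 85707403, plus strand) lies in an exon of the noncoding transcript Lncppara. Mirlet7d (ENSMUSG00000065453.1, chromosome 13, 48536012 to 48536114, minus strand) lies in an exon of the long noncoding RNA 6720427I07Rik. Mirlet7e (ENSMUSG00000105758.1, chromosome 17, 17830352 to 17830444, plus strand) is in an intron of the protein-coding gene Spaca6. Mirlet7g (ENSMUSG00000065440.1, chromosome 9, 106178840 to 106178927, plus strand) is in an intron of Wdr82. Mirlet7i (ENSMUSG00000065406.3, chromosome 10, 122985640 to 122985724, minus strand) overlaps an exon of the transcribed pseudogene D630033A02Rik.

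Depth was ample for the members. Sense-strand counts over all microRNA genes came to 6713867 in replicate 1 and 5901107 in replicate 2, and reads that mapped to several places, counted for no gene, made up 43.9% and 45.9% of each library. Among the marker genes, 12 of neurons summed to 37565 and 37758 CPM (sense counts of a gene per 1000000 sense counts on all microRNA genes). The 3 Mir124a genes among them had means under 10 CPM, with Mir124a-2 at 0 in both libraries. Of 5 muscle markers, Mir206 had 32.6 and 19.3 CPM and the other 4 were at 0 in both. These 4, like Mir124a-2, are extra copies that encode a common microRNA, whose reads may map to several places and be counted for no gene, so their zeros give no level. The 4 markers of liver and pancreas summed to 576 and 339 CPM. In bulk tissue, fewer cells of a type and less RNA per cell cannot be told apart.

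The 5 single-copy let-7 genes together held a mean of 32.1% of all microRNA counts. Their summed share was 32.3% in replicate 1 (exact 95% interval 32.3 to 32.4) and 31.8% in replicate 2 (31.8 to 31.8), or 320566 ± 3773 CPM (SD, n = 2). All 5 were among the 8 most abundant microRNA genes by mean level. Share and rank hold for counted reads only, since genes whose reads map to several places may be undercounted. Over all reads, counted or not, the sum was 134289 per 1000000 reads. The exact (Clopper-Pearson) intervals cover the counting error of reads within a library only, not the spread between libraries. The reads carry no molecular identifiers, so repeated reads of a molecule are counted as separate.

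Mirlet7b had 72727 CPM in replicate 1 and 111790 CPM in replicate 2, a mean of 92258 ± 27622 CPM (SD, n = 2). It had rank 5 of all microRNA genes in the former library and rank 2, below Mir139, in the latter. Mirlet7i had 94910 and 73784 CPM, a mean of 84347 ± 14938, and headed the list of all genes in replicate 1. Mirlet7g had 89071 and 59962 CPM, a mean of 74517 ± 20583. Thus Mirlet7b was the member with the highest level in replicate 2 and lay below Mirlet7i and Mirlet7g in replicate 1.

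The other members were lower in each library. Mirlet7d had 39215 and 39721 CPM, a mean of 39468 ± 358 (SD, n = 2). Mirlet7e had 27311 and 32641 CPM, a mean of 29976 ± 3768. Their ranges overlapped neither each other nor those of Mirlet7b, Mirlet7i and Mirlet7g.

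The order by mean level was b, i, g, d and e. Mirlet7b, Mirlet7i and Mirlet7g did not differ beyond their spread: their means lay 7911 to 17742 CPM apart, less than the larger SD of each pair. Within each library Mirlet7g lay below Mirlet7i, at 0.938 and 0.813 times its level, whereas Mirlet7b was below both in replicate 1 and above both in replicate 2. Mirlet7g exceeded Mirlet7d by 35048 CPM and Mirlet7d exceeded Mirlet7e by 9492 CPM, more than the larger SD of each pair, 20583 and 3768 CPM. The order was the same per base of hairpin, from 1085 CPM per base for Mirlet7b to 322 for Mirlet7e, and all member 5′ arms have one length. With n = 2 no test between members was made.

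**Figure D1:**
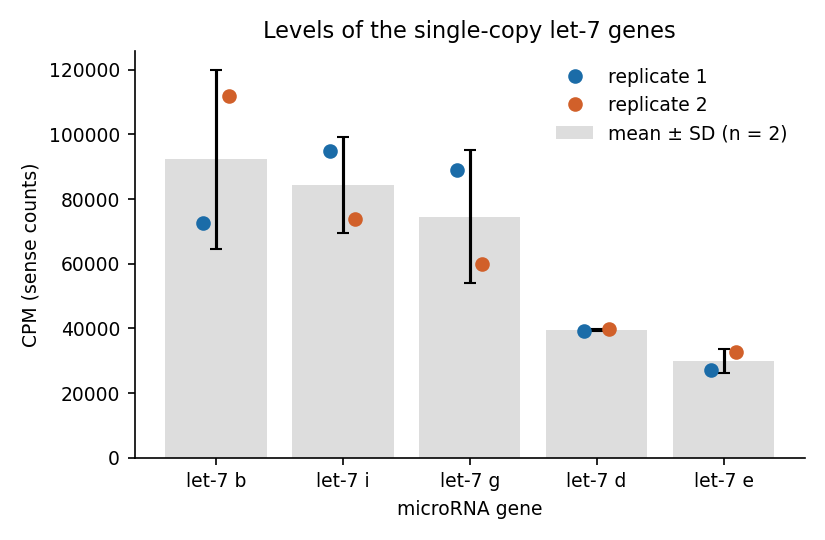
Level of each single-copy let-7 gene in CPM of sense counts, as points for replicate 1 and replicate 2 and as a bar for the mean with its SD (n = 2). Mirlet7b is higher in replicate 2 (111790 CPM), Mirlet7i and Mirlet7g are higher in replicate 1 (94910 and 89071 CPM), and Mirlet7d is nearly level.

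The genes with the closest pair of values were sought over the 466 genes whose mean sense count reached 10, by the root mean square difference of log2(CPM + 1) over the 2 libraries. Mirlet7g and Mirlet7i were each other's nearest gene, at 0.22. Next for both was Mir127, of the imprinted Dlk1-Dio3 locus, at 0.25 from Mirlet7g and 0.46 from Mirlet7i, with Mirlet7b in the third place for both, at 0.67 and 0.50. Mirlet7b had Mirlet7i (0.50), Mir139 (0.56) and Mirlet7g (0.67). Mirlet7d was nearest to Mir744 (0.07), an intronic microRNA with 38056 and 42439 CPM, then to Mirlet7e (0.42) and Mir23b (0.69). Mirlet7e was nearest to Mir23b (0.30), Mirlet7d (0.42) and Mir744 (0.43). With only 2 libraries this likeness is mainly one of level.

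Reads that map to several places form a class of their own outside the gene counts, so the counts can depend on how much of an arm is shared. The longest part of a member 5′ arm found in any other annotated microRNA hairpin, on either strand, was 14 bases for let-7d, 16 for let-7b, let-7e and let-7i, and 17 for let-7g, in Mir3962. Bases 1 to 16 of let-7b are also in the let-7a and let-7c hairpins, and bases 1 to 16 of let-7i in that of let-7g. With the bases before the arm, 19 bases are shared between Mirlet7b and Mirlet7c-2 and 19 between Mirlet7g and Mirlet7i. No member arm, 5′ or 3′, occurred whole in another hairpin, and the 3′ arms shared 10 to 15 bases. Only annotated hairpins were searched for copies, and only for exact stretches. Let-7e differs from let-7a by U9G alone, and let-7b from let-7c by A17G alone. The aligner is not given, so how reads with a mismatch were placed is not known.

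The relatives differ in this respect. The whole 5′ arm of Mirlet7a-1, Mirlet7a-2, Mirlet7c-1, Mirlet7c-2, Mirlet7f-1 and Mirlet7f-2 occurs in another hairpin, and the 3′ arms of Mirlet7a-1 and Mirlet7c-2 are identical. These 6 genes had mean levels of 128 CPM (Mirlet7f-1) to 1490 CPM (Mirlet7f-2), and with Mir98 they summed to 5584 ± 4.36 CPM (SD, n = 2), against 320566 CPM for the members. Mir98 does not follow this split: no other hairpin holds more than 10 bases of its 5′ arm, and it had 2109 and 1001 CPM. The counts of the other 6 may leave out reads of the 5′ arm, which was not tested since counts per arm were not analysed here, and their levels are not used to rank let-7a, let-7c and let-7f against the members. The small SD of the relatives' sum hides opposite moves: Mir98 was lower in replicate 2, while Mirlet7c-2 went from 899 to 1562 CPM.

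**Figure D2:**
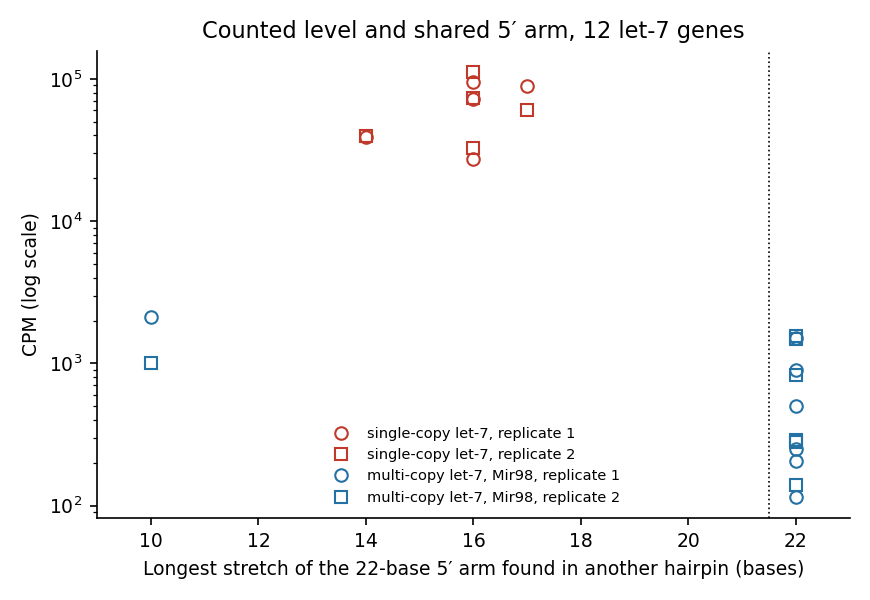
Counted level in CPM (log axis) against the longest stretch of the 22-base 5′ arm that another annotated hairpin holds, for 12 let-7 genes in replicate 1 (circles) and replicate 2 (squares). The members, at 14 to 17 bases, lie at 27311 CPM or above, the 6 genes right of the dotted line share the whole arm and lie at 1562 CPM or below, and Mir98 is the pair of points at 10 bases.

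Mirlet7d, Mirlet7b and Mirlet7e have microRNA genes on the same strand within 10 kb. On chromosome 13 Mirlet7d (39468 CPM) starts 1817 bases from Mirlet7f-1 (128 CPM) and 2167 bases from Mirlet7a-1 (270 CPM), each in a 6720427I07Rik exon. Mirlet7d therefore had 309 times the counted level of the former and 146 times that of the latter. On chromosome 15 Mirlet7b had 75.0 times the level of Mirlet7c-2 (1230 CPM), 716 bases away and likewise in an exon of Lncppara. These neighbours are among the genes whose whole 5′ arm is shared.

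The chromosome 17 cluster gives a comparison in which the neighbours belong to other families. Mir99b starts 164 bases before Mirlet7e and Mir125a 460 bases after it. Mirlet7e had 2.61 times the CPM of Mir99b in replicate 1 and 3.46 times in replicate 2, and 1.91 and 1.49 times that of Mir125a. Mirlet7e thus had the highest counted level of the cluster in both libraries. By mean level this held also per base of hairpin, at 322 CPM per base against 267 for Mir125a and 142 for Mir99b, while the ratios among the 3 genes moved. Shared arms of Mir99b and Mir125a were not described, so this order holds for counted reads only. The multi-copy partners elsewhere lay far below theirs in counted reads: Mirlet7a-2 at 244 CPM beside Mir100 at 6308, and Mirlet7c-1 at 667 CPM beside Mir99a at 15437. Mir125b-1 and Mir125b-2, which lie farther along these clusters, had 818 and 805 CPM. Shared arms were described for the let-7 genes only, so Mir125b-1 and Mir125b-2 are not ranked against Mir125a. Nor are Mirlet7a-2 and Mirlet7c-1 ranked against Mir100 and Mir99a, since their whole 5′ arm occurs in another hairpin and its reads may be uncounted.

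The count columns carry no names, and which one holds the annotated strand was read from the values over all genes. In the column taken as the opposite strand Mirlet7b had 1 count in each library and the other members 0, where 0 allows up to 3 counts. Mirlet7e had 183363 and 192615 sense counts but 0 in both libraries in the column taken as ignoring strand, and the annotated microRNA gene Gm25927 lies opposite it. Its sense counts equal 41.9% of the ambiguous class of that column in replicate 1 and 52.3% in replicate 2. Gm25927 itself had 0 sense counts in both.

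The libraries were then compared gene by gene. Each gene's counts were set against all other counts by a 2-sided Fisher exact test with Benjamini-Hochberg adjustment over 466 genes, and sizes are log2 ratios of replicate 2 over replicate 1 after TMM scaling in edgeR (a trimmed mean of log ratios), each with a standard error that reflects counting alone. A gene was called higher or lower where the test passed and the ratio kept its sign under TMM, totals and DESeq2 size factors. The test compares these libraries, not conditions. Adapter trimming followed a different document for each library, so the trimming and the biosample cannot be told apart.

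Mirlet7b, Mirlet7e and Mirlet7d were higher in replicate 2, and Mirlet7g and Mirlet7i were lower. All 5 passed the test, against 57.5% of the 466 genes, 18% being called higher, 35.6% lower and 3.86% passing with a sign that depended on the scaling. Among the 20 most abundant genes the other 15 passed as well, so passing says little at this depth. The members' median log2 ratio was 0.18, against -0.02 over all genes tested. Their median size regardless of sign was 0.41, against 0.36.

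Counts of Mirlet7b were 488278 in replicate 1 against 659685 in replicate 2. Its log2 ratio after TMM was 0.78 with a counting SE of 0.00272, or 1.72-fold, and by CPM it was 0.62, or 1.54-fold. For Mirlet7e they were 183363 and 192615, with a log2 ratio of 0.42 (SE 0.00471) after TMM, or 1.34-fold, and of 0.26 by CPM, or 1.20-fold. Mirlet7d had 263285 and then 234399 counts and a log2 ratio of 0.18 (SE 0.00410) after TMM, or 1.13-fold, and of 0.02 by CPM, or 1.01-fold, with an adjusted p of 1.02e-05 by the Fisher exact test. For the other members the p was too small for the software to hold and is not printed. The size for Mirlet7d thus rests on the scaling, while those of Mirlet7b and Mirlet7e were above 0.25 under all 3 scalings.

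Mirlet7g went from 598010 counts in replicate 1 to 353844, with a log2 ratio of -0.41 (SE 0.00306) after TMM, or 0.753 times the level in replicate 1. By CPM, which scales to totals, the log2 ratio was -0.57, or 0.673 times. Mirlet7i went from 637214 to 435408 counts, with a log2 ratio of -0.20 (SE 0.00284) after TMM, or 0.870 times, and of -0.36 by CPM, or 0.777 times. TMM places all log2 ratios 0.16 above those from totals. Over all genes, testing against TMM effective library sizes, with the sign taken under TMM alone, gave 115 higher and 137 lower. As called above there were 84 and 166, and the main test with the sign under TMM alone gave 102 and 166. The shift from the calls above therefore combines a change of test and a change of sign rule.

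**Figure D3:**
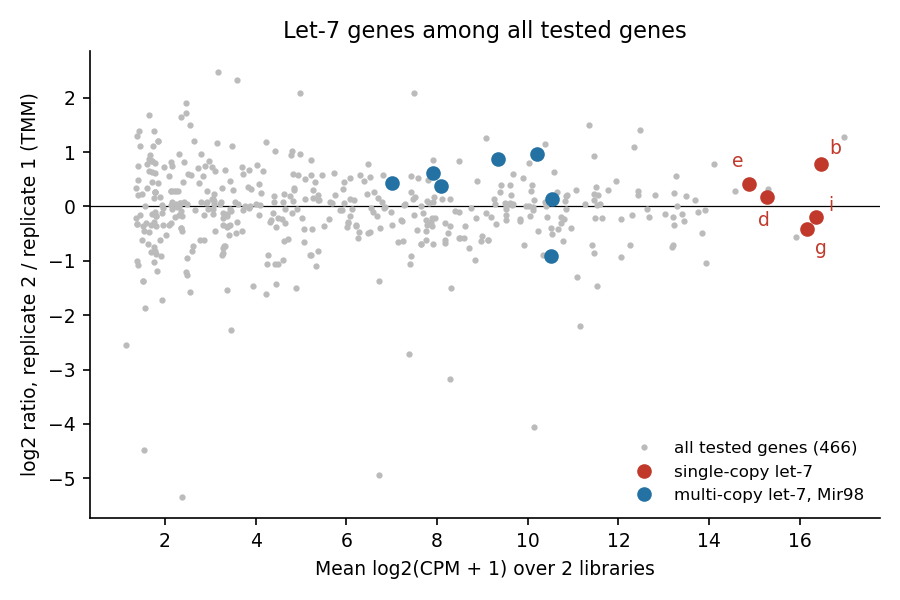
Log2 ratio of replicate 2 over replicate 1 (TMM) against the mean log2(CPM + 1) for the 466 tested genes (grey), with the 5 members in red, marked by letter, and the 7 relatives in blue. The members lie at the abundant end, between -0.41 (g) and 0.78 (b), within the range of the other genes.

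The make-up of the summed level differed between the libraries. The 5 genes together had 323234 and 317898 CPM, a log2 ratio of -0.02, which turned to 0.14 after TMM, so the direction of the sum depends on the scaling. Mirlet7b supplied 22.5% of the members' counts in replicate 1 (exact 95% interval 22.4 to 22.6) and 35.2% in replicate 2 (35.1 to 35.2), a gain of 12.7 percentage points. Mirlet7g went from 27.6% to 18.9% and Mirlet7i from 29.4% to 23.2%. Mirlet7d held 12.1% and 12.5%, and Mirlet7e 8.45% and 10.3%. These shares do not depend on the scaling of the libraries. Mirlet7b had 0.817 times the counts of Mirlet7g in replicate 1 and 1.86 times in replicate 2, a change of 2.28-fold, while the ratio of Mirlet7g to Mirlet7i went from 0.938 to 0.813.

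**Figure D4:**
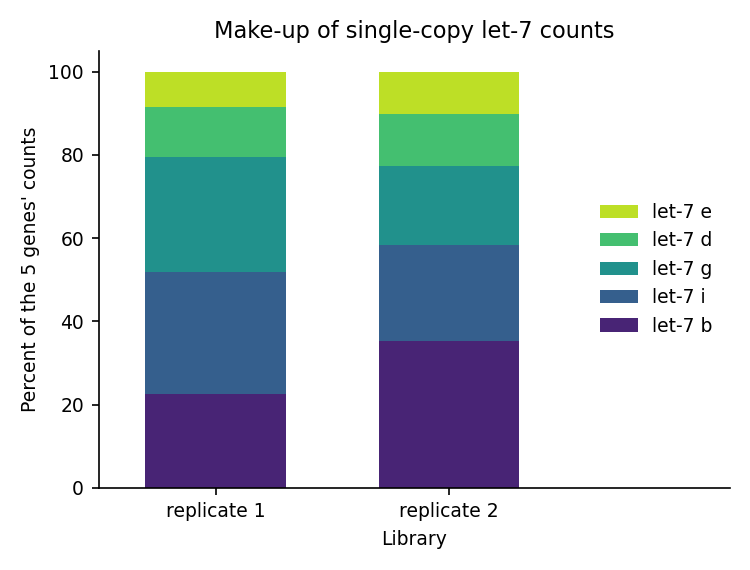
Percent of the summed counts of the 5 single-copy let-7 genes that each supplied, stacked for replicate 1 and replicate 2. Mirlet7b grows from 22.5% to 35.2%, while Mirlet7g goes from 27.6% to 18.9% and Mirlet7i from 29.4% to 23.2%.

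Neighbours at a locus moved alike in some places and not in others. Mirlet7c-2, beside Mirlet7b, was higher in replicate 2 at a log2 ratio of 0.96 (SE 0.02) against 0.78 for Mirlet7b. Mirlet7f-1 (0.43, SE 0.07) and Mirlet7a-1 (0.38, SE 0.05), beside Mirlet7d (0.18), were higher too. At the Mirlet7e locus the ratios were 0.78 for Mir125a, 0.42 for Mirlet7e and 0.01 for Mir99b, whose sign depended on the scaling. Differences between these ratios were not tested as such.

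**Figure D5:**
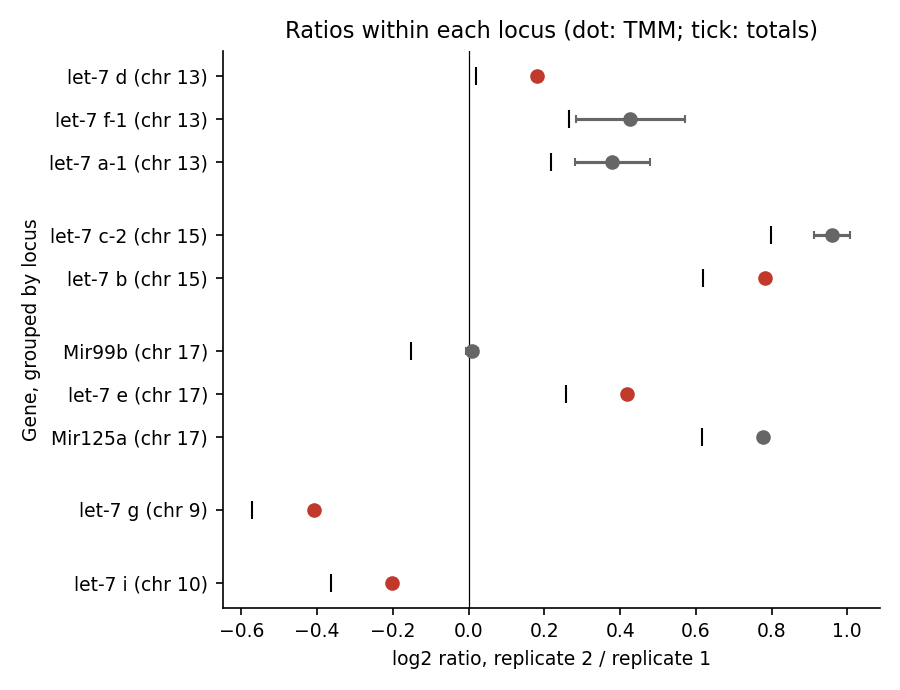
Log2 ratio of replicate 2 over replicate 1 for the members (red) and their same-strand neighbours (grey), grouped by locus, with dots for TMM with intervals of 2 counting SE and ticks for totals. The chromosome 15 pair lies near 0.78 and 0.96, the chromosome 17 cluster spans 0.01 to 0.78, and Mirlet7g and Mirlet7i lie below 0.

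Across the family 8 of 12 let-7 genes were called higher, 3 lower and 1 did not pass, where over all 466 genes 18% were called higher and 35.6% lower. The genes called lower were Mirlet7g, Mirlet7i and Mir98, at -0.91 (SE 0.02). Those with the highest ratios were Mirlet7c-2, Mirlet7c-1 (0.87) and Mirlet7b. Mirlet7a-2 stood at 0.62, and Mirlet7f-2, at 0.14, did not pass (adjusted p = 0.362, Fisher exact test) and was at -0.02 under totals. This is a description of 12 genes, 6 of which share their whole 5′ arm with another hairpin.

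Markers of other cells also differed between the libraries, as many genes did: over all 466 genes 18% were called higher and 35.6% lower. The endothelial marker Mir126a was called lower, going from 6191 to 2897 CPM. The 3 oligodendrocyte markers summed to 7078 and 3193 CPM, with 2 called lower, Mir219a-2 at a log2 ratio of -1.46 after TMM and Mir338 at -0.20, while Mir219a-1 (-0.04) did not pass. The 2 mural markers summed to 2480 and 1504 CPM, with Mir143 called lower at -0.64 and Mir145a, at 0.26, not passing. The 3 erythrocyte markers summed to 73.1 and 32.7 CPM, and both of the 2 that were tested were called lower. The 4 markers of choroid plexus and ependyma summed to 2050 and 1744 CPM, with 1 called higher and 3 lower and a median log2 ratio of -1.03. All 4 markers of liver and pancreas were called lower. The 4 markers of leukocytes and microglia went from 1367 to 1857 CPM in sum. Mir150, with a mean of 1559 CPM, was called higher, and Mir142, Mir223 and Mir155 were called lower. The 12 neuron markers summed to 37565 and 37758 CPM, as above. Of these, 9 were tested, with 5 called higher and 4 lower, and the 3 Mir124a genes, with means under 10 CPM, were not tested. The part of these cell types in the let-7 differences was not tested.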

How the data were processed

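Per the labels, RNA below 30 nt of 2 hippocampal samples was sequenced, and adapters were trimmed by a protocol document that differs between them. The authors deposited raw whole-number counts of reads per microRNA gene, with mm10 and GENCODE M21 named in the accompanying notes. The aligner and counter were not given in the sources used here. The 3 unlabelled count columns were read from their values as without strand, sense and opposite strand, and the sense column was used. The 4 read classes (unmapped, several places, no gene, ambiguous) were left out of library sizes. All 2202 identifiers matched GENCODE M21, and 12 of 12 let-7 genes matched the RefSeq table.

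CPM were computed over all gene rows. Ratios added 0.5 counts. Genes with a mean of 10 or more sense counts were tested by Fisher's exact test (SciPy 1.17.1), Benjamini-Hochberg threshold 0.05, with edgeR 4.0.16 TMM and DESeq2 1.42.0 size factors for scaling. The step was tried on simulated Poisson counts, with Mir139 absorbing the change in total. Changed genes were outside the 20 most abundant, so no member was among them. The step called 82.8% of genes changed 2-fold, 70.4% of those changed 1.5-fold and 1.09% of unchanged genes. The simulation had no spread between libraries beyond counting, so these shares give no rate of false calls for the real libraries. Without that absorption it called 16.8% of unchanged genes, since it compares shares.

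Named genes were the members, the other let-7 genes, microRNA genes within 10 kb, the Mir99, Mir100 and Mir125 cluster partners, the 3 nearest genes in level per member, and genes ranking between members. The members and lists were chosen with earlier results of these data known.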

Additional observations from a re-analysis of the deposited data

Results flagged for a closer look

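The count column for the opposite strand, which the comparisons do not use, held counts for genes annotated opposite let-7 genes. For such a gene this column counts reads on the strand of the let-7 gene. Gm25927, annotated opposite Mirlet7e, had 183363 counts there in replicate 1 and 192615 in replicate 2, the same numbers as the sense counts of Mirlet7e. Gm24111, annotated opposite Mirlet7f-1, had 778 and 822, the same numbers as the sense counts of Mirlet7f-1. Gm25927 and Gm24111 had 0 sense counts in both libraries, where a count of 0 would allow up to 3. The values thus give no sign of reads from the strand of these genes.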

How the results depend on the processing

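No paired analysis was possible because the series has a single group. For the members, 34 of 34 alternative values of the ratio between libraries kept their direction and side of the threshold. They covered other scalings, added counts, counts without strand (not Mirlet7e, which has none) and, chosen after seeing the data, the test against TMM effective library sizes. Much of this was fixed in advance. For totals, DESeq2 size factors and added counts the main test was carried over, so only the direction could change. Added counts hardly move ratios of counts this high. The test against TMM effective library sizes kept the main ratio, so only the side of the threshold could change. Both could change only for totals without Mir139 and counts without strand. Counts of genes that differ stayed within 1.5 times (18 of 18 values). Of the relatives, Mirlet7f-2, which did not pass, reversed to -0.023 under totals, and it passed at 0.15 under totals without Mir139 and at 0.14 in the test against TMM effective library sizes. Levels depend on the denominator. Over all reads, the reads mapped to several places included, Mirlet7b had 38522, Mirlet7i 35395, Mirlet7g 31302, Mirlet7d 16530 and Mirlet7e 12539 CPM, and their sum 134289. Over genes sharing fewer than 18 bases, with the member added, they had 122420, 113814, 101777, 60127 and 45618 CPM, and the sum 353217. A member sharing 18 or more bases was added only for its own level, and all such members for the sum. The denominators therefore differ, and the single values do not add up to the sum. Without Mir139 in the denominator Mirlet7d had 45951, Mirlet7e 35068 and the sum 372900 CPM. Without strand Mirlet7d had 42156, Mirlet7e 0 and the sum 310388 CPM. These shifts follow from the denominators and, without strand, from the loss of Mirlet7e. Leaving out either replicate gave 72727 to 111790 CPM for Mirlet7b, 73784 to 94910 for Mirlet7i, 59962 to 89071 for Mirlet7g, 39215 to 39721 for Mirlet7d, 27311 to 32641 for Mirlet7e and 317898 to 323234 for the sum. Depth does not limit the members, and n = 2 does.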
